A study of Mus musculus with 8 samples.

Results

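The miRNAs described here are 7 that are known as neuronal (mmu-miR-9, mmu-miR-124, mmu-miR-128a, mmu-miR-137, mmu-miR-218, mmu-miR-7a and mmu-miR-7b, written below without the species prefix), out of 375 miRNA assays on the TaqMan card. They were chosen by name, and each has 1 assay on the card. Their levels were compared in the ventral part of the lumbar spinal cord, the region that holds the motor neurons of the hind limb. The groups were 4 wild type samples of the FVB strain and 4 samples of MLC/SOD1[G93A] mice, for which FVB is named as the control strain. All were taken at 4 months of age, and the labels name no treatment. The MLC/SOD1[G93A] mouse overexpresses mutant SOD1 (SOD1[G93A]) from the Myosin Light Chain promoter, which is muscle specific, so the transgene is driven in skeletal muscle. The wild type samples are numbered 1 to 4 and the MLC/SOD1[G93A] samples 5a to 8a, as in the deposited columns. The sources do not say that the samples of a group came from separate animals, and p-values measure the spread between these samples.

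miRNAs are short RNAs that pair through their seed, bases 2 to 8, with messenger RNAs and lower the output of those messengers. miR-124, which is largely restricted to neurons, represses transcripts of non-neuronal cells, and miR-9 acts in neural progenitors and neurons and, in the spinal cord, on Foxp1, a transcription factor that sets motor neuron subtypes. miR-128a limits neuronal excitability, and miR-137 acts on dendrites and synapses. miR-218 is known as a motor neuron miRNA of the cord, where its loss makes motor neurons hyperexcitable. The miR-7 members are abundant in neuroendocrine cells and are bound by the circular RNA Cdr1as.

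The mature sequences show which of these miRNAs can share targets, and they are given with the seed in capitals, 5′ to 3′. The assay names carry no arm, and each was taken as the main arm of its hairpin. In the table of RefSeq sequences used here (GRCm38.p6), 6 of the 7 were matched, and miR-124 is named only.
miR-218: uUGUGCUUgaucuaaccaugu
miR-9: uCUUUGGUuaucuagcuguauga
miR-128a: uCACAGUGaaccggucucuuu
miR-137: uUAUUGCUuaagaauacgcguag
miR-7a: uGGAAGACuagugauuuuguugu
miR-7b: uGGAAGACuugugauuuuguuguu

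These 6 sequences hold 5 distinct seeds, and miR-7a and miR-7b share theirs. Over the 23 bases of miR-7a, miR-7b differs by A10U (miR-7a base first, counted from 1 at the 5′ end), and it is longer by 1 base at the 3′ end. Whether either assay also reads the other miRNA was not tested. miR-218 shares its seed with 1 other mature entry, miR-7002-3p, while the seeds of miR-9, miR-128a and miR-137 occur in 0 other entries of the 1679 mature names.

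The 6 matched miRNAs come from 11 hairpin loci. miR-218 is made from Mir218-1 (chr5:48223942-48224051, + strand), inside the gene Slit2, and from Mir218-2 (chr11:35616816-35616925, + strand), inside Slit3, both of which encode axon guidance ligands. Both copies give the same mature miR-218, so the assay cannot tell them apart. miR-128a comes from Mir128-1 in R3hdm1 (chr1:128202361-128202430, + strand) and Mir128-2 in Arpp21 (chr9:112118636-112118711, - strand). The 3 miR-9 loci on chromosomes 3, 7 and 13 each lie within a long non-coding RNA gene, and Mir137 (chr3:118433857-118433929, + strand) overlapped no other annotated gene. Mir7-1 (chr13:58392779-58392886, - strand) lies within Hnrnpk, whereas Mir7-2 (chr7:78888277-78888373, + strand) and Mir7b (chr17:56242988-56243098, + strand) overlapped no other gene. Gene spans were compared, and exons and introns were not analysed here.

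The readout is the threshold cycle (Ct), the amplification cycle in which fluorescence passes a fixed level, so a lower Ct stands for more RNA and 1 cycle is 1 unit on the log2 scale. All 7 miRNAs had a Ct of 35 or less in all 8 samples. The Ct was lowest for miR-9, at a mean of 22.6 over the 8 samples, followed by miR-218 (23.8), miR-124 (27.4), miR-128a (28.9), miR-137 (29.3), miR-7b (31.3) and miR-7a (33.4). Among the 190 miRNAs measured in all samples, miR-9 ranked 5 and miR-218 ranked 11 by Ct, and miR-7a ranked 189. This order of neighbours was the same in 8 of 8 samples for all pairs except miR-128a and miR-137, whose Ct differed by 0.43 ± 0.32 cycles (mean ± SD over the 8 samples) and which changed places in 1 sample. Assays differ in efficiency, so the order describes signals on this card and not molecules per cell.

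Log2 expression was taken relative to 2 references. One is U6, a small nuclear RNA with 4 wells per card whose Ct were averaged. The other, the global mean, averages the Ct of those 190 miRNAs. The U6 average ran from 17.4 to 18.4 in wild type samples and from 16.9 to 18.5 in MLC/SOD1[G93A] samples, and the global mean Ct from 28.0 to 29.0 and from 28.3 to 28.9. Wild type 1 and sample 7a had the lowest U6 Ct of their groups, which by construction lowers every value of these samples relative to U6. The U6 wells of samples 7a and 8a spanned 2.14 and 1.97 cycles, against 0.39 to 1.05 in the other samples. Sample 8a also gave a U87 Ct of 18.4, against 27.9 to 29.5 elsewhere. Over all 227 miRNAs tested, the median log2 change (MLC/SOD1[G93A] minus wild type) was -0.31 with U6 as the reference and 0.043 with the global mean, a shift of 0.35 between them. In limma with Benjamini-Hochberg adjustment, 0 of the 227 (0%) had an adjusted p under 0.05 with either reference, while at an unadjusted p under 0.05 there were 6 (2.64%) with U6 and 21 (9.25%) with the global mean. The groups did not overlap for 4 of the 227 (1.76%) with U6 and for 10 (4.41%) with the global mean. Of the 7 neuronal miRNAs, 0 had a p under 0.05 at either level with either reference, and the groups overlapped for all 7.

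miR-218, the motor neuron miRNA, was the only one of the 7 whose groups did not overlap in plain Ct, and they overlapped relative to both references. Its Ct was 23.69, 23.56, 23.47 and 23.63 in wild type samples 1 to 4 and 23.91, 24.16, 24.03 and 23.93 in MLC/SOD1[G93A] samples 5a to 8a. Every MLC/SOD1[G93A] sample had a higher Ct, thus less signal, than every wild type sample. The group means were 23.59 ± 0.095 (SD, n = 4) and 24.01 ± 0.11 (SD, n = 4), a difference of 0.42 cycles with a two-sided exact permutation p = 0.0286, the smallest that 4 against 4 samples allow. Across all 227 miRNAs, groups did not overlap in plain Ct with less signal in MLC/SOD1[G93A] samples for 7 (3.08%). In limma on plain Ct the log2 change of miR-218 was -0.42 (standard error 0.23, 95% interval -0.93 to 0.089) with an adjusted p of 0.823, and of the 227 miRNAs 0 (0%) had an adjusted and 14 (6.17%) an unadjusted p under 0.05. The spread of its Ct within groups, 0.105 cycles pooled over both groups, ranked 1 among the 190 miRNAs measured in all samples, whose median was 0.53 cycles.

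**Figure D1:**
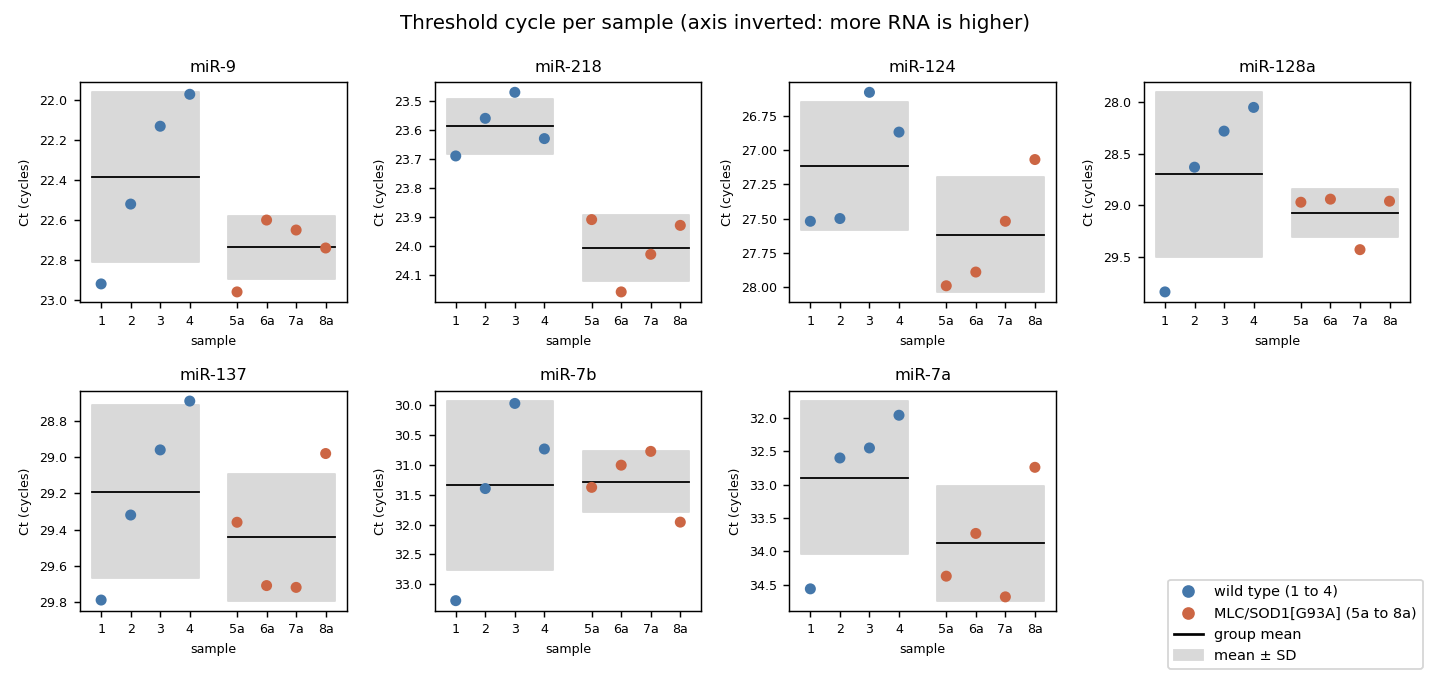
Threshold cycle (y axis, cycles, inverted, own range in each panel) of each neuronal miRNA in wild type samples 1 to 4 and MLC/SOD1[G93A] samples 5a to 8a (x axis), with the group mean as a line and mean ± SD as a grey band. For miR-218 the wild type samples lie between 23.47 and 23.69 and the MLC/SOD1[G93A] samples between 23.91 and 24.16, while the groups of the other miRNAs overlap.

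Relative to U6, the log2 expression of miR-218 was -6.24, -5.36, -5.03 and -5.49 in wild type samples 1 to 4 and -5.41, -5.66, -7.15 and -5.97 in MLC/SOD1[G93A] samples 5a to 8a. The lowest values of the groups were those of wild type 1 and of sample 7a, and the groups overlapped. The means were -5.53 ± 0.51 (SD, n = 4) and -6.05 ± 0.77 (SD, n = 4), a log2 change of -0.52 with a 95% interval of -1.76 to 0.73 (adjusted p = 0.975, limma). Scaled to the global mean, expression was 5.31, 4.92, 4.64 and 4.39 in wild type and 4.87, 4.71, 4.66 and 4.34 in MLC/SOD1[G93A] samples. Here wild type 1 was the highest sample of all and wild type 4 lay among the lowest, so that the MLC/SOD1[G93A] values sat inside the wild type range apart from sample 8a. The log2 change was -0.17 with a 95% interval of -0.75 to 0.41 (adjusted p = 0.955, limma; two-sided exact permutation test over the samples, p = 0.486). Without wild type 1 it was -0.0020, and leaving out any other sample gave -0.31 to -0.066. Relative to U6, leaving out 1 sample gave -0.76 (without wild type 1) to -0.15 (without sample 7a). The spread of miR-218 within groups on the scale of the global mean (0.32) ranked 50 of 190.

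Among miR-9, miR-124, miR-128a and miR-137, miR-124 had the lowest log2 change with both references, and its groups overlapped with both. Scaled to the global mean, its log2 expression was 1.48, 0.98, 1.53 and 1.15 in wild type samples 1 to 4 and 0.79, 0.98, 1.17 and 1.20 in MLC/SOD1[G93A] samples 5a to 8a. Wild type 1 and 3 were the 2 highest samples, and wild type 2 lay below samples 7a and 8a. The means were 1.29 ± 0.27 (SD, n = 4) and 1.04 ± 0.19 (SD, n = 4), a log2 change of -0.25 with a 95% interval of -0.76 to 0.26 (adjusted p = 0.801, limma; two-sided exact permutation p = 0.257). Relative to U6, the values were -10.07, -9.30, -8.14 and -8.73 and -9.49, -9.39, -10.64 and -9.11, and the highest MLC/SOD1[G93A] sample (8a) lay below 2 of the 4 wild type samples. This gave a log2 change of -0.60 (standard error 0.61, 95% interval -1.88 to 0.69, adjusted p = 0.975, limma).

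miR-9 was the most even of the neuronal miRNAs in wild type cord once scaled to the global mean, at 6.08, 5.96, 5.98 and 6.05 in samples 1 to 4. The MLC/SOD1[G93A] samples 5a to 8a lay at 5.82, 6.27, 6.04 and 5.53, on both sides of the wild type samples. With means of 6.02 ± 0.058 (SD, n = 4) and 5.92 ± 0.32 (SD, n = 4), the log2 change was -0.10 (95% interval -0.61 to 0.41, adjusted p = 0.964, limma). Relative to U6 it read -5.47, -4.32, -3.69 and -3.83 in wild type and -4.46, -4.10, -5.77 and -4.78 in MLC/SOD1[G93A] samples. Wild type 1 and sample 7a were the 2 lowest samples on that scale, although neither was the lowest of its group relative to the global mean.

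miR-137 had the smallest difference between the groups relative to the global mean. Its log2 expression on that scale was -0.79, -0.84, -0.85 and -0.67 in wild type and -0.58, -0.84, -1.03 and -0.71 in MLC/SOD1[G93A] samples, and the wild type range lay within the MLC/SOD1[G93A] range. The means were -0.79 ± 0.082 (SD, n = 4) and -0.79 ± 0.19 (SD, n = 4), so the log2 change was -0.00033 with a 95% interval of -0.46 to 0.46 (limma). Its pooled spread within groups on this scale was 0.15, rank 3 of the 190 miRNAs. Relative to U6 the same samples gave -12.34, -11.12, -10.52 and -10.55 and -10.86, -11.21, -12.84 and -11.02, a log2 change of -0.35 (95% interval -1.69 to 0.99). For miR-128a, expression relative to the global mean was -0.84, -0.15, -0.17 and -0.031 in wild type and -0.19, -0.066, -0.74 and -0.69 in MLC/SOD1[G93A] samples. Wild type 1 and samples 7a and 8a were the 3 lowest, and the other 5 samples lay between -0.19 and -0.031. Its log2 change was -0.12 relative to the global mean (95% interval -0.73 to 0.49, adjusted p = 0.964, limma). Relative to U6, miR-128a read -12.39, -10.43, -9.84 and -9.91 and -10.47, -10.44, -12.55 and -11.00, with a log2 change of -0.47 (95% interval -1.92 to 0.98).

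**Figure D2:**
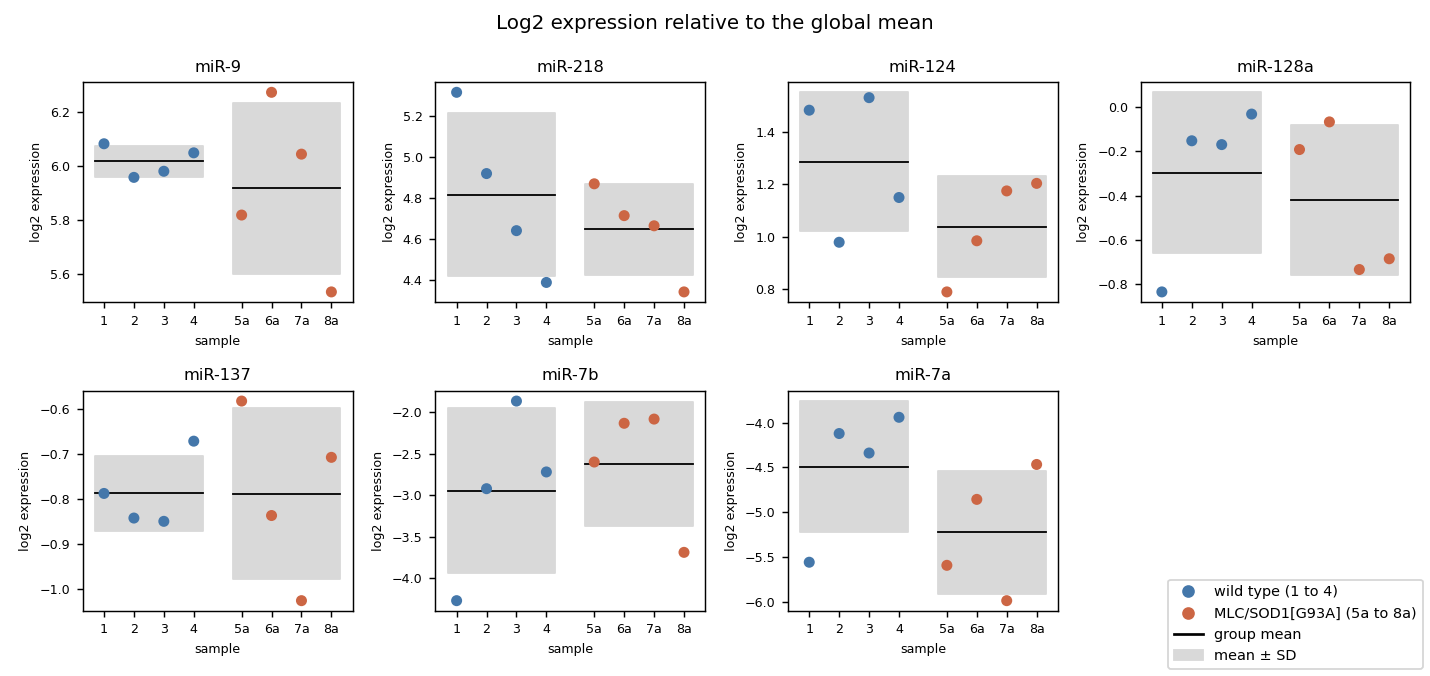
Log2 expression relative to the global mean (y axis, own range in each panel) of each neuronal miRNA by sample (x axis), with the group mean as a line and mean ± SD as a grey band. The groups overlap for all 7, and the means of miR-137 coincide at -0.79.

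**Figure D3:**
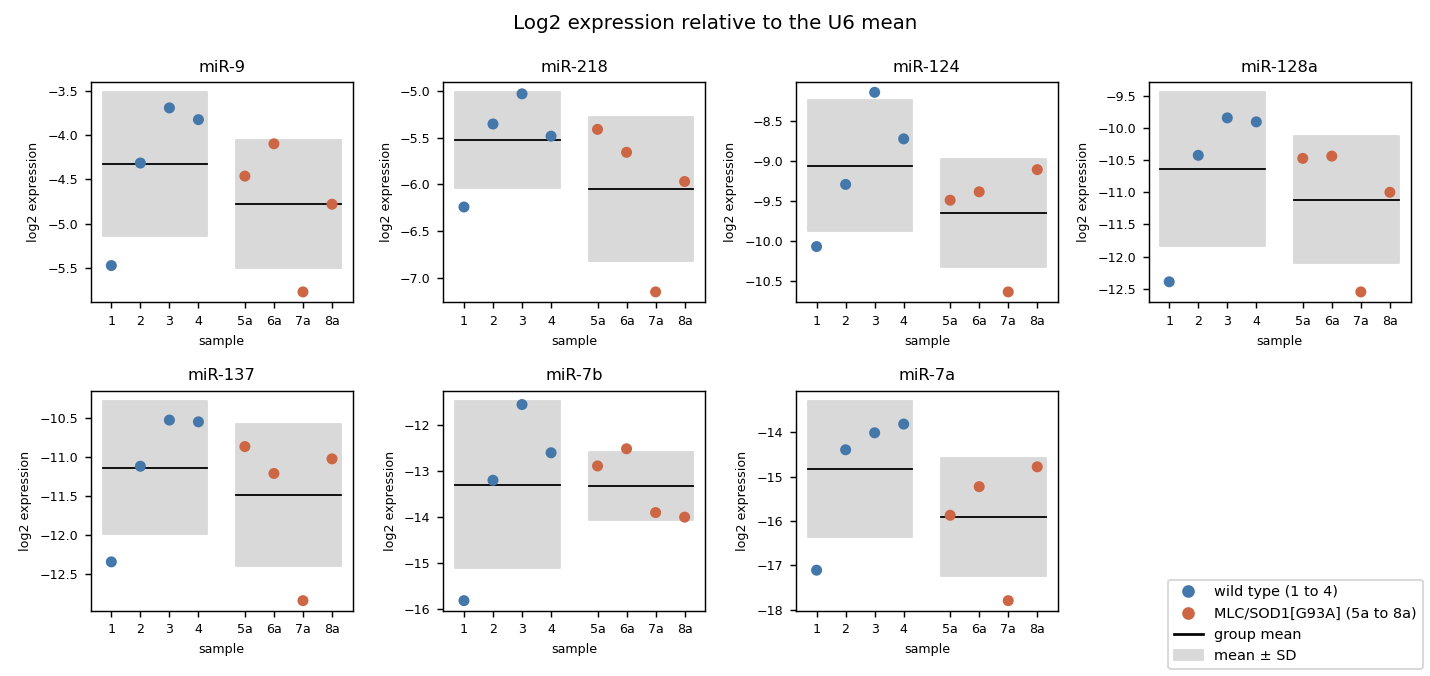
Log2 expression relative to the mean of the U6 wells (y axis, own range in each panel) of each neuronal miRNA by sample (x axis), with the group mean as a line and mean ± SD as a grey band. Wild type 1 is the lowest wild type sample for all 7, and sample 7a is the lowest MLC/SOD1[G93A] sample for 6 of them and 8a for miR-7b.

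miR-7a and miR-7b, which share the seed GGAAGAC, gave changes of opposite sign relative to the global mean, neither past the test. On this scale, miR-7a was at -5.56, -4.12, -4.34 and -3.94 in wild type samples 1 to 4 and at -5.59, -4.86, -5.99 and -4.47 in MLC/SOD1[G93A] samples 5a to 8a. Apart from wild type 1, every wild type sample was above every MLC/SOD1[G93A] sample, and wild type 1 lay among the lowest. The log2 change was -0.74 (standard error 0.44, 95% interval -1.72 to 0.25, adjusted p = 0.637, limma). Relative to U6, miR-7a read -17.11, -14.40, -14.01 and -13.82 in wild type and -15.87, -15.23, -17.80 and -14.78 in MLC/SOD1[G93A] samples, with a log2 change of -1.09 (95% interval -2.73 to 0.56). Without wild type 1 the change was -1.85 relative to U6 (adjusted p = 0.100 in limma) and -1.09 relative to the global mean (adjusted p = 0.182). Without sample 7a it was -0.46 and -0.48, and without wild type 4 it was -0.75 and -0.55. The Ct of miR-7a was 34.6 in wild type 1, 34.4 in sample 5a and 34.7 in sample 7a, close to the limit of 35.

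For miR-7b, log2 expression relative to the global mean was -4.27, -2.92, -1.87 and -2.72 in wild type and -2.60, -2.14, -2.09 and -3.69 in MLC/SOD1[G93A] samples. Wild type 1 and sample 8a were the lowest of their groups, and the other 6 samples were mixed. The change was 0.32 (95% interval -0.87 to 1.50, adjusted p = 0.955, limma), and without wild type 1 it was -0.12. Relative to U6 the values were -15.82, -13.20, -11.54 and -12.60 and -12.88, -12.51, -13.90 and -14.00, with a change of -0.034 (95% interval -1.65 to 1.59). The Ct of miR-7a minus that of miR-7b needs no reference. It was 1.29, 1.20, 2.47 and 1.22 cycles in wild type and 2.99, 2.72, 3.90 and 0.78 cycles in MLC/SOD1[G93A] samples. Samples 5a, 6a and 7a were above every wild type sample and 8a was below them all, with means of 1.55 ± 0.62 and 2.60 ± 1.31 cycles (SD, n = 4). This pair was set side by side after the values were seen and was given no test.

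To set the motor neuron miRNA against the other neuronal ones without any reference RNA, the Ct of each of the 6 other miRNAs was taken minus the Ct of miR-218 within each sample. Against miR-9 the difference was -0.77, -1.04, -1.34 and -1.66 cycles in wild type samples 1 to 4 and -0.95, -1.56, -1.38 and -1.19 cycles in MLC/SOD1[G93A] samples 5a to 8a. The 2 sets of values interleaved, with means of -1.20 ± 0.38 (SD, n = 4) and -1.27 ± 0.26 (SD, n = 4) (two-sided exact permutation p = 0.771). The difference to miR-124 was 3.83, 3.94, 3.11 and 3.24 cycles in wild type and 4.08, 3.73, 3.49 and 3.14 cycles in MLC/SOD1[G93A] samples. Again the groups covered nearly the same range, with means of 3.53 ± 0.42 (SD, n = 4) and 3.61 ± 0.40 (SD, n = 4) (two-sided exact permutation p = 0.743). Against miR-137 the values were 6.10, 5.76, 5.49 and 5.06 cycles and 5.45, 5.55, 5.69 and 5.05 cycles, and against miR-128a they were 6.15, 5.07, 4.81 and 4.42 cycles and 5.06, 4.78, 5.40 and 5.03 cycles. Wild type 1 had the largest difference of all samples for both of these. The two-sided exact permutation p was 0.486 for miR-137 and 0.857 for miR-128a.

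The differences between the groups were of opposite sign for the miR-7 pair with all samples, but not without wild type 1, when the log2 change relative to miR-218 was -1.09 for miR-7a and -0.12 for miR-7b. Relative to miR-218, the difference of miR-7a was 10.87, 9.04, 8.98 and 8.33 cycles in wild type and 10.46, 9.57, 10.65 and 8.81 cycles in MLC/SOD1[G93A] samples, and that of miR-7b was 9.58, 7.84, 6.51 and 7.11 cycles and 7.47, 6.85, 6.75 and 8.03 cycles. Wild type 1 gave the largest value for both, and the mean differences between the groups were 0.57 and -0.49 cycles (two-sided exact permutation p = 0.429 and 0.571). The mean over the 6 other miRNAs minus miR-218 was 5.02 ± 0.69 cycles in wild type and 5.0 ± 0.22 cycles in MLC/SOD1[G93A] samples (SD, n = 4), a difference of -0.020 cycles, given with no test because it is a mean over chosen miRNAs. Without miR-7a and miR-7b it was 3.26 ± 0.47 and 3.21 ± 0.18 cycles (SD, n = 4). Fitted over all 226 other miRNAs with miR-218 as the reference, 0 (0%) passed an adjusted p of 0.05 in limma. An unadjusted p under 0.05 was found for 21 (9.29%), and the groups did not overlap for 19 (8.41%), with 0 of the 6 neuronal miRNAs among either. The 95% intervals of their changes relative to miR-218 were -0.58 to 0.72 for miR-9, -0.79 to 0.63 for miR-124, -0.80 to 0.89 for miR-128a and -0.51 to 0.85 for miR-137. Shifts between miR-218 and these 4 miRNAs anywhere within those intervals are compatible with the data at 4 samples a group. The smallest shift that could be detected was not computed.

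**Figure D4:**
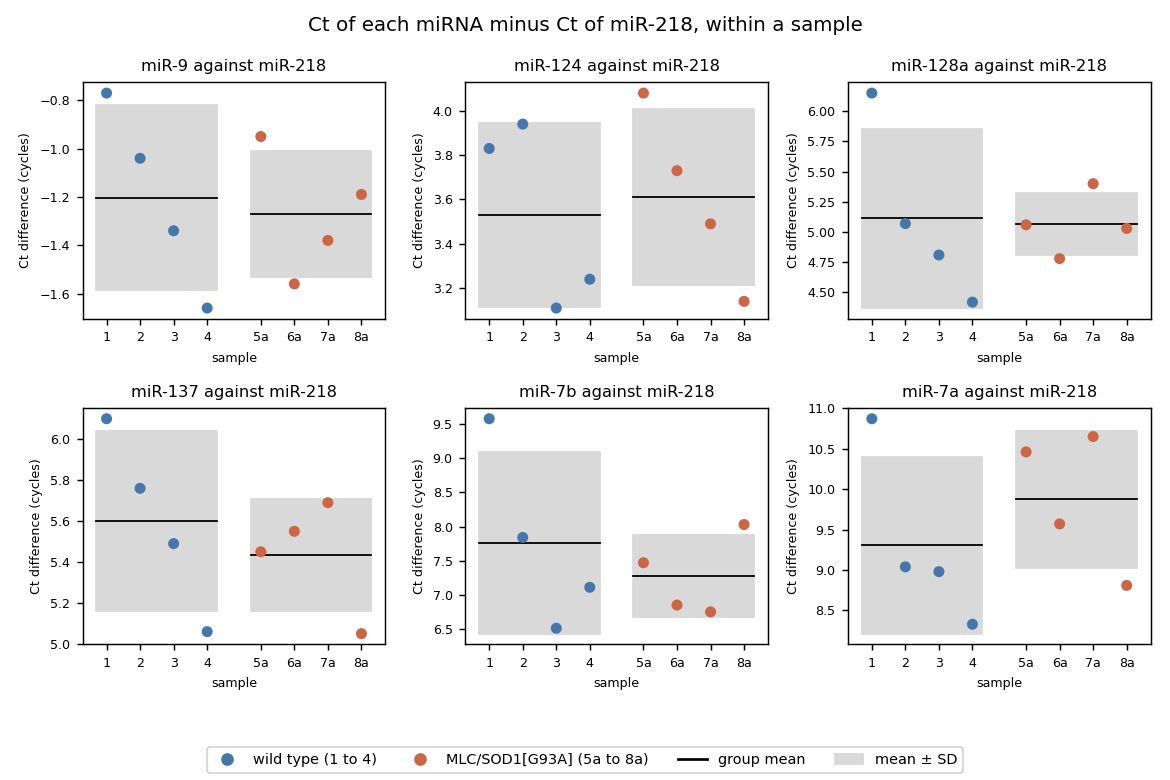
Ct of each of 6 neuronal miRNAs minus the Ct of miR-218 in the same sample (y axis, cycles, own range in each panel; a higher value is less of the miRNA relative to miR-218) by sample (x axis), with the group mean as a line and mean ± SD as a grey band. The groups overlap in all 6 panels.

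The sign of the change depended on the reference RNA for 6 of the 7. With snoRNA202, the log2 change was negative for all 7, from -1.12 for miR-7a to -0.065 for miR-7b, and -0.55 for miR-218 (95% interval -1.14 to 0.036). With snoRNA135, miR-218 was at -0.028 and miR-124 at -0.11, while miR-9 (0.040), miR-128a (0.018), miR-137 (0.14) and miR-7b (0.46) were positive. The small RNA Y1 gave positive changes for 6 of the 7, among them miR-218 (0.42), miR-9 (0.49) and miR-137 (0.59), and a negative one for miR-7a (-0.15). The change of miR-7a was negative with each reference tried, and of U6, the global mean, these 3 small RNAs and plain Ct, only with snoRNA202 did its interval (-2.20 to -0.039) leave out 0, with an adjusted p of 0.364 in limma. Relative to U6, all 7 changes were negative, where 77.5% of the 227 miRNAs were, and their median was -0.47 beside -0.31 over all. With the global mean, 6 of the 7 were negative, where 46.3% of all were, with a median of -0.12 beside 0.043.

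**Figure D5:**
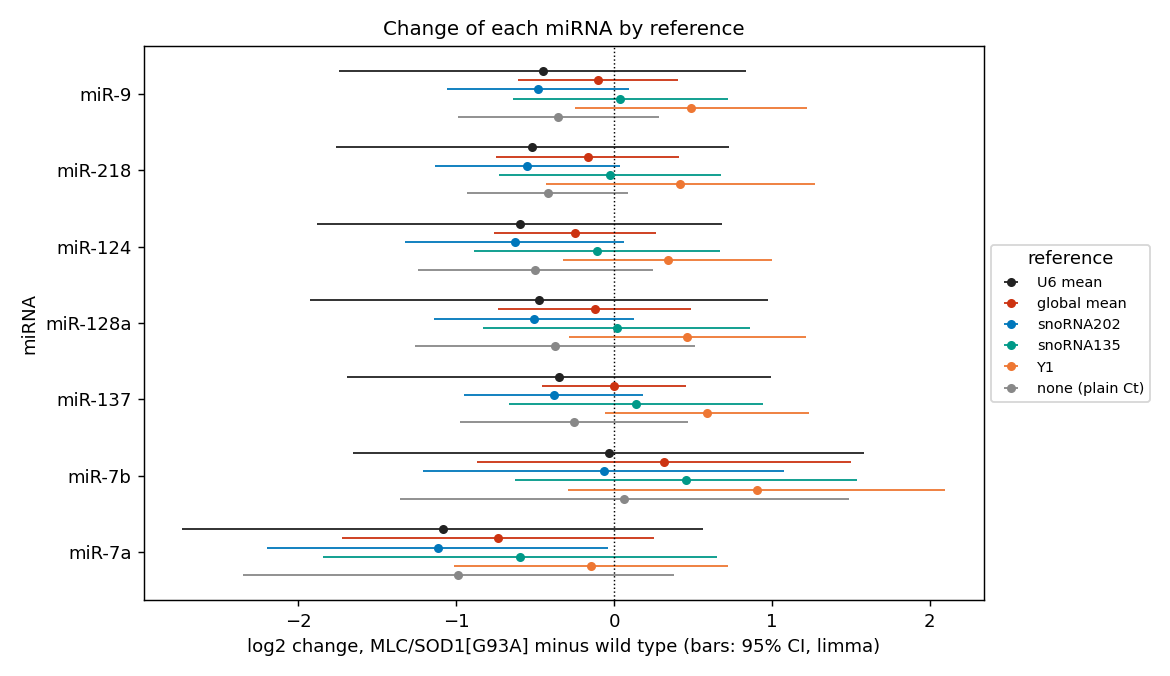
Log2 change (x axis, MLC/SOD1[G93A] minus wild type; points, with 95% intervals from limma as bars) of each neuronal miRNA (y axis) relative to the U6 mean, the global mean, snoRNA202, snoRNA135, Y1 or no reference (colours). Changes with Y1 lie to the right of those with U6 for all 7, from -0.15 for miR-7a to 0.91 for miR-7b, and all intervals cross 0 except that of miR-7a with snoRNA202.

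How closely 2 miRNAs follow each other over the 8 samples can be read from the SD of their Ct difference, which no reference enters. This SD is also small where both miRNAs vary little. Within groups, the Ct of miR-218, miR-9, miR-137 and miR-124 spread by 0.105, 0.32, 0.42 and 0.44 cycles. That of miR-128a spread by 0.59 cycles, beside a median of 0.53 over the 190 miRNAs. The part of this in the SDs of the pairs was not tested. Among miR-9, miR-124, miR-128a, miR-137 and miR-218, the 10 pairs had SDs from 0.30 to 0.51 cycles, with a median of 0.33. Over all 21 pairs of the 7 neuronal miRNAs the median was 0.63, close to the 0.68 over all 17955 pairs of the 190 miRNAs. The closest pair was miR-9 and miR-137 (0.30 cycles), a value below which 4.52% of all pairs lay. The 11 pairs with miR-7a or miR-7b ran from 0.63 to 1.10 cycles, and the widest was that of miR-7a with miR-7b. The 2 miR-7 assays have the highest Ct of the 7 miRNAs, and the part of low signal in this spread was not tested. The miRNAs most like miR-218 by this measure were miR-222 (0.20 cycles), miR-126-3p (0.22 cycles) and miR-384-5p (0.23 cycles). Of the neuronal miRNAs, miR-9 (0.31 cycles) was the closest to miR-218, at rank 13 of 189, followed by miR-137 (0.35 cycles, rank 29) and miR-124 (0.38 cycles, rank 38).

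A list of 12 other neuron-enriched miRNAs was looked up beside them, of which 9 were tested, and miR-153 was measured in 5 of 8 samples. miR-212 and miR-326 were not analysed here. With the global mean as reference, 7 of the 9 changes were positive and 2 were negative, with a median of 0.21. At an unadjusted p under 0.05, 1 was lower (miR-129-5p) and 0 were higher, where 5.73% and 3.52% of the 227 were, and 0 had an adjusted p under 0.05 in limma. The log2 expression of miR-129-5p was -1.83, -2.31, -2.76 and -2.56 in wild type and -3.56, -2.66, -3.49 and -4.62 in MLC/SOD1[G93A] samples, and only sample 6a reached into the wild type range. Its change was -1.22 (95% interval -2.12 to -0.31, adjusted p = 0.427 in limma), and the two-sided exact permutation p was 0.0571. miR-129-3p, by name the other arm, had a change of 0.15 (adjusted p = 0.955 in limma). Its mean level in wild type samples was higher, at 1.44 against -2.36 for miR-129-5p. At the other end of the list, miR-135b had a change of 0.51 (95% interval -0.33 to 1.34, adjusted p = 0.697).

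The tissue is a mixture of cells, and in bulk RNA fewer cells of a type and less RNA per cell cannot be told apart. Markers of other cells were measured in the same samples. The oligodendrocyte miRNAs miR-219 and miR-338-3p were present in all 8, with a summed level (as a multiple of the global mean) of 1.44 to 1.95 in wild type and 1.06 to 1.92 in MLC/SOD1[G93A] samples. This sum leaves out miR-138, which can also be listed with oligodendrocyte miRNAs but was placed in the neuron-enriched list. Its mean log2 level relative to the global mean was 6.73 in wild type and 7.18 in MLC/SOD1[G93A] samples. The change was 0.44 (95% interval -0.33 to 1.22, adjusted p = 0.697, limma). miR-338-3p had a log2 change of -0.80 relative to the global mean (unadjusted p = 0.0476, adjusted p = 0.515, limma), and miR-219 one of -0.11 (adjusted p = 0.964). For miR-338-3p the two-sided exact permutation p was 0.0571, and 5.73% of the 227 miRNAs were lower at an unadjusted p under 0.05 in limma. Its unadjusted p in limma was 0.110 relative to U6 and 0.148 relative to miR-218. All 6 microglia and leukocyte miRNAs gave signal, 5 of them in all samples and miR-142-5p in 6, with summed levels of 18.2 to 33.9 and 20.7 to 23.8. Of the 5 tested, 3 had negative and 2 positive changes. The myeloid miRNA miR-223 was at 1.99, 1.50, 3.17 and 1.81 in wild type and 0.40, 0.10, 0.71 and 1.45 in MLC/SOD1[G93A] samples relative to the global mean on the log2 scale. All its MLC/SOD1[G93A] values lay below all wild type values, with a change of -1.45 (95% interval -2.38 to -0.52, unadjusted p = 0.00632, adjusted p = 0.427, limma). On this scale, complete separation in either direction was seen for 4.41% of the 227 tested. An unadjusted p under 0.05 in limma was seen for 9.25%. The change of miR-223 was -1.80 relative to U6 (adjusted p = 0.963) and -1.28 relative to miR-218 (adjusted p = 0.482). By contrast, miR-150, with a higher mean level on the card, had a change of 0.20 relative to the global mean (adjusted p = 0.955). For the 2 blood miRNAs (miR-451 and miR-486) the levels were 4.58 to 10.9 and 3.98 to 8.92, for the endothelial pair 79.8 to 147.7 and 82.3 to 119.1, and for the mural pair 2.23 to 10.5 and 4.27 to 7.59. The 3 muscle miRNAs were present in all samples as well, at 14.9 to 39.7 in wild type and 13.6 to 42.5 in MLC/SOD1[G93A] cord. The ranges of the summed levels overlapped between the groups for each list, although the values of miR-223 alone did not. Such a sum follows mostly the miRNAs with the most signal. Relative to the global mean, the log2 change was -1.12 for miR-451 and 0.092 for miR-486. It was -0.61 for miR-142-3p, -0.14 for miR-146a and 0.14 for miR-155, and all of these had an adjusted p of 0.635 or more in limma. The part of these markers in the values of the neuronal miRNAs was not tested.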

How the data were processed

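Total RNA (600 ng) of each sample was reverse transcribed and run by the authors on 1 TaqMan mouse miRNA card A. They deposited a table of Ct values without normalization, with 100 miRNA values over 35 still in it, and a table on the log2 scale in which the authors subtracted the mean U6 Ct of each sample. Another deposited table holds their own comparison between the groups and was not used. The labels give no batch. Cards give no counts, and precision is limited by their number.

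Undetermined wells and Ct values over 35 counted as missing, and a miRNA entered the tests (227 of 375) if each group had at most 1 missing value. Log2 expression was the reference Ct minus the Ct of the miRNA. The comparison of the groups used limma 3.58.1 in R 4.3.3 over all miRNAs tested, with Benjamini-Hochberg adjustment and a threshold of 0.05, while single values were given exact two-sided permutation tests that run through the 70 assignments of 8 samples. Where samples were left out, the same miRNAs were tested. The standard error of a log2 change had a median of 0.66 with U6 and 0.32 with the global mean. The miRNAs and lists were chosen with earlier results of these data known. By rule, the text names the 7 neuronal miRNAs, the 3 miRNAs most like miR-218 and the extremes of the neuronal list. Named after their values were seen were miR-219, miR-338-3p, miR-138, miR-129-3p, miR-223, miR-150, miR-142-3p, miR-146a, miR-155, miR-451 and miR-486. The MLC/SOD1[G93A] columns carry numbers that the sample labels do not use and were assigned to the group only. The alternatives were other references, limits of 32 and 40 on the Ct, missing values treated differently, an exact Mann-Whitney test, an ordinary linear model, the authors' normalized table and leaving out samples.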

Additional observations from a re-analysis of the deposited data

Results flagged for a closer look

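Dixon's test was run on 40 groups of 4 values of the neuronal miRNAs to look for a sample far from the other 3 of its group. It found 0 past its 95% limit, where chance gives about 5% of separate groups. The 40 groups reuse the same 8 samples across miRNAs and scales, so they are not separate. With 4 values a group, this result does not show that no sample stands apart. Plain Ct and the Ct difference of miR-7a and miR-7b were not among the 40 groups. In plain Ct, miR-128a was at 29.43 in sample 7a and at 28.94 to 28.97 in samples 5a, 6a and 8a. The Ct of miR-7a minus that of miR-7b was 2.47 cycles in wild type 3 and 1.20 to 1.29 in wild type 1, 2 and 4. The negative control of the card, a plant miRNA that no comparison used, had a Ct of 29.85 in MLC/SOD1[G93A] sample 7a and gave no signal in the other 7 samples. In sample 7a this was a lower Ct than those of miR-7a (34.68) and miR-7b (30.78). It was close to those of miR-137 (29.72) and miR-128a (29.43). The bearing of this signal on the values of sample 7a was not tested.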

How the results depend on the processing

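The smallest adjusted p of a neuronal miRNA under any alternative run was 0.100. Under a Ct limit of 32, miR-7a had too few values to be fitted. Other tests and rules for missing values left the log2 changes as they were. Counting only values that moved by more than 0.01, 85 relative to U6 kept their direction and 18 did not, with 57 and 8 relative to the global mean and 41 and 12 relative to miR-218. Relative to U6, the sign changed with snoRNA135 for miR-9 (0.040), miR-128a (0.018), miR-137 (0.14) and miR-7b (0.46), with Y1 for miR-9 (0.49), miR-124 (0.34), miR-128a (0.47), miR-137 (0.59), miR-218 (0.42) and miR-7b (0.91), and for miR-7b with the median Ct of the 190 miRNAs (0.31) and with plain Ct (0.065). Relative to the global mean, it changed with a Ct limit of 32 for miR-7b (-0.16). With a limit of 40, miR-137 went from -0.00033 to 0.0072, a move under 0.01 that these counts leave out. Relative to miR-218, the sign changed with a limit of 32 for miR-7b (-0.12). With wild type 1 and sample 7a both left out, chosen after seeing the data, miR-137 (0.079) and miR-7b (-0.30) changed sign relative to the global mean, and miR-9 (-0.11), miR-128a (-0.19) and miR-7b (-0.30) relative to miR-218. The cause of these changes was not tested. With U87, whose Ct in sample 8a stands far from the rest, the log2 changes fell to between -3.36 and -2.31.

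Leaving out 1 sample at a time gave log2 changes relative to U6 of -1.06 to 0.0046 for miR-128a, -0.76 to 0.10 for miR-137, -1.85 to -0.46 for miR-7a and -0.88 to 0.55 for miR-7b. Relative to the global mean they were -0.22 to 0.028 for miR-9, -0.069 to 0.079 for miR-137, -1.09 to -0.48 for miR-7a and -0.12 to 0.68 for miR-7b, and relative to miR-218 -0.077 to 0.22 for miR-9, -0.24 to 0.077 for miR-124, -0.30 to 0.28 for miR-128a, -1.09 to -0.24 for miR-7a and -0.12 to 0.90 for miR-7b. The number of all miRNAs with an adjusted p under 0.05 in limma relative to U6 ran from 0 to 4, with 4 when wild type 1 was left out, and was 0 in every such fit relative to the global mean and to miR-218. Without wild type 1, an unadjusted p under 0.05 was found for 37, 47 and 37 miRNAs relative to U6, the global mean and miR-218, against 6, 21 and 21 with all samples. With all samples, the reference gave 67 with Y1, 29 with snoRNA202, 12 with snoRNA135 and 0 with U87. The mean Ct difference of the 6 other miRNAs to miR-218 between the groups ran from -0.22 to 0.29 cycles. At the same level, the exact Mann-Whitney test gave 0, 6 and 15 miRNAs relative to U6, the global mean and miR-218, and the ordinary linear model 5, 15 and 24. No paired analysis was possible because the columns of the groups share no replicate numbers, so the fit with a replicate block was not run.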
